A study of Rattus norvegicus with 6 samples.

Results

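The genes described here are 47 genes that mark lymphocytes and mast cells, namely 22 T cell genes, 7 natural killer (NK) and cytotoxic cell genes, 11 B and plasma cell genes and 7 mast cell genes, in the kidney of a rat with polycystic kidney disease. A member was taken from the array by the gene symbol of the platform annotation, probe sets that carry several symbols were left out, and the probe set of brightest mean signal over the 6 arrays stood for the gene. This gave 40 of the 47 genes a probe set, out of 14217 genes that have such a probe set among the 31042 that are not controls. Tbx21 and Foxp3 of the T cell genes, Cd38, Cd79a, Igha and Ighm of the B and plasma cell genes and Mcpt2 of the mast cell genes had no probe set named for them alone and were not analysed here.

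Kidney tissue of male Han:SPRD rats was profiled in 3 Cy/+ and 3 wild-type +/+ samples, with 1 array per sample. Cy/+ rats carry a mutant copy of Anks6 beside a normal one and develop cystic kidneys, and neither genotype had a treatment in the labels. The labels give an age of 10 weeks for both genotypes, while the methods of the study give a younger one. No source used here states that the 3 samples of a genotype came from separate rats, so a p-value here reflects how far these samples differ from each other, and that spread can be technical.

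T cells recognise antigen through a receptor whose signalling tails belong to the CD3 chains. The kinases Lck and Zap70 and the adaptor proteins LAT and SLP-76 pass the signal on. B cells mature into plasma cells, which secrete antibody, and the J chain joins antibody units into polymeric IgA and IgM. NK cells and cytotoxic T cells kill with perforin and granzymes, and mast cells store proteases and bind IgE through a high affinity receptor. In a healthy kidney all of these cells are sparse, and lymphocytes and macrophages gather between the tubules in cystic kidneys.

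The deposited values are MAS5 signals on a linear scale in arbitrary units, and their log2 values were compared with limma. A probe set was tested where its mean log2 signal over the 6 arrays reached the 40th percentile, which is a signal of 77.8, and 18625 probe sets did. The Benjamini-Hochberg adjustment ran over all of these, and an adjusted p under 0.05 counts as past the threshold. A fold change is Cy/+ over +/+. Where the +/+ mean lay below 77.8, the measured ratio depends on signals near background. The Cy/+ geometric mean over 77.8 is then added as an "at least" value. This value only sets the +/+ mean to 77.8. It takes no account of the spread of the arrays, is not a confidence bound, and the confidence interval can reach below it. In whole tissue, more cells of a type and more RNA per cell cannot be told apart.

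The libraries of the genotypes differed as a whole. The Pearson correlation of log2 signals was 0.982 to 0.9903 between Cy/+ arrays, 0.9965 to 0.9973 between +/+ arrays and 0.9069 to 0.9402 between a Cy/+ and a +/+ array. The 18 spiked-in hybridization control probe sets were all brighter on the Cy/+ arrays, with a median of 1.83-fold. The 24 poly-A control probe sets were brighter too, by a median of 3.82-fold. The 3' to 5' signal ratio of beta-actin was 3.22 ± 0.26 in Cy/+ and 1.51 ± 0.0057 in +/+ kidneys (SD, n = 3 each). Of the 7 kidney markers with a probe set, the proximal tubule genes Slc34a1, Lrp2 and Slc5a2 and the podocyte gene Nphs1 were lower in Cy/+ kidneys and 3 did not pass. The summed signal of the 7 was 19850 to 32160 in Cy/+ and 49210 to 50270 in +/+ kidneys. The part of these differences in the results below was not tested.

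Of the 20 T cell genes with a probe set, 12 were past the threshold with more signal in Cy/+ samples. Cd4 and Zap70 did not pass, and 6 were too dim for a test. Among these 6, Cd8b, Cd28 and Ctla4 lay lower on every Cy/+ array, Cd5 and Cd8a lay higher, and Trat1 overlapped. The plasma cell gene Jchain was higher as well, while genes of NK, cytotoxic and mast cells lay mostly near background in both genotypes. Jchain had the largest change of the 40 members, and the genes of the 4 CD3 chains followed it. Of the 17 members tested, 13 were higher, none was lower and 4 did not pass the test, beside 35.8% of all tested probe sets that were higher and 31.3% that were lower. At an unadjusted p under 0.05 the limma fit gave 13 higher and 0 lower members, and the methods' t-test gave 12 higher and 0 lower after adjustment (1 lower before it). The median log2 fold change of the 17 was 1.23, against 0.048 over all tested probe sets. For 10 members the +/+ mean alone lay below 77.8, so that some reached the mean over 6 arrays only through their Cy/+ signals, and these counts do not stand for all members.

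Over all 40 members, the 3 Cy/+ arrays lay above the 3 +/+ arrays for 19 genes, below them for 7 and overlapped with them for 14. Among all probe sets 29.1% lay above in this way and 34.4% below. The median log2 fold change of the 40 was 0.25, against -0.057 over all probe sets. Without the filter on low signals 16 of the 40 were higher and 4 lower, beside 25.2% of all probe sets higher and 26.8% lower (limma, adjusted p). The members nearest the threshold for testing were Cd22, with a mean signal of 93.7, just inside, and Prf1, with 76.0, just outside.

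**Figure D1:**
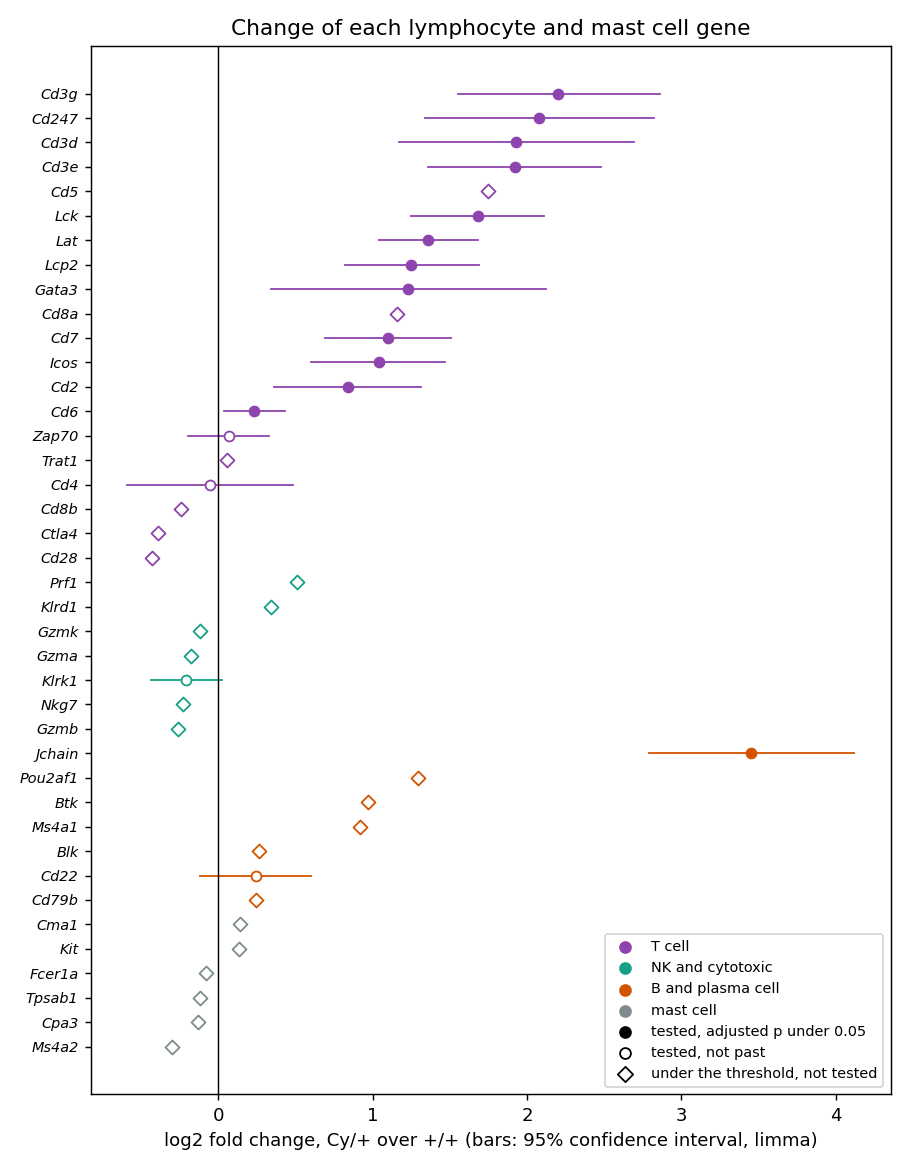
Log2 fold change of each of the 40 members with a probe set, Cy/+ over +/+, coloured by cell class. Filled circles are genes past the adjusted p of 0.05, open circles are tested genes that did not pass, both with 95% confidence intervals from limma, and diamonds are genes under the threshold for testing. The 4 CD3 chains lie between 1.92 and 2.20 and Jchain lies at 3.45, while the mast cell genes lie between -0.30 and 0.14.

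All 4 CD3 chain genes were higher in Cy/+ kidneys, by 3.78-fold to 4.61-fold. Cd3g, which encodes CD3 gamma, had signals of 268.4, 383.7 and 164.5 in Cy/+ kidneys, against 57.64, 54.22 and 55.38 in +/+ kidneys. Its log2 fold change was 2.20 (standard error 0.28, adjusted p = 0.00042 from limma), or at least 3.3-fold. The lowest Cy/+ signal was far above the highest +/+ signal, and the +/+ arrays were close to each other, with means of 272 ± 110 in Cy/+ and 55.7 ± 1.74 in +/+ kidneys (SD, n = 3 each).

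Cd247, which encodes the zeta chain, had 185.3, 368.9 and 150.8 in Cy/+ kidneys, against 44.85, 55.63 and 54.79 in +/+ kidneys (log2 fold change 2.08, standard error 0.31, adjusted p = 0.000946 from limma, at least 2.8-fold). Cd3d, which encodes CD3 delta, had 216.6, 294.1 and 115.9 in Cy/+ kidneys, against 43.87, 51.74 and 58.89 in +/+ kidneys (1.93, 0.32, adjusted p = 0.00151, at least 2.5-fold). The same Cy/+ array, of replicate 2, was the brightest for all 4 chains, and the array of replicate 3 was the dimmest. Cd3e, which encodes CD3 epsilon, had 282.5, 293.3 and 173.0 in Cy/+ kidneys, against 51.96, 65.01 and 78.44 in +/+ kidneys (1.92, 0.24, adjusted p = 0.000392, at least 3.12-fold). In +/+ kidneys every chain had a mean below the threshold for testing. The dimmer second probe sets of Cd3e and Cd247 were not tested, with log2 fold changes of 0.44 and 0.37 and all means below 77.8.

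**Figure D2:**
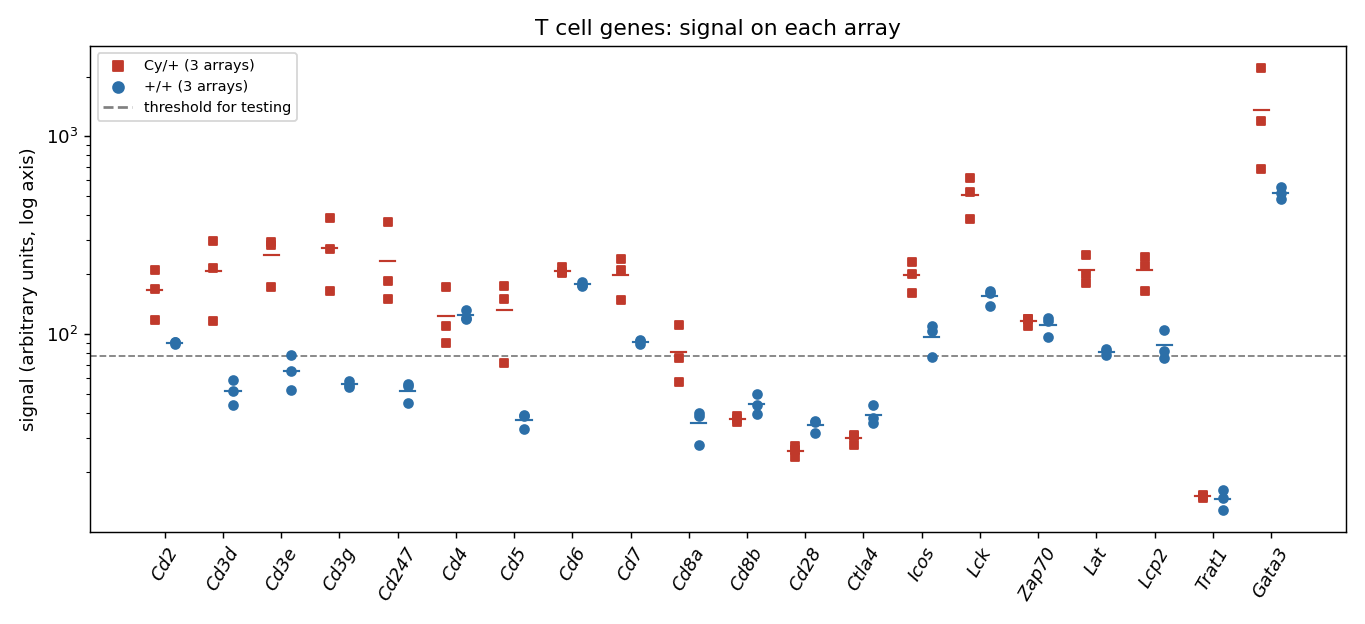
Signal of the 20 T cell genes with a probe set on each array, in arbitrary units on a log axis, with red squares for Cy/+ and blue circles for +/+ samples and short lines for the arithmetic means of 3 arrays. The dashed line is the threshold for testing of 77.8. The Cy/+ squares of Cd3g lie from 164.5 to 383.7, while its +/+ circles lie from 54.22 to 57.64.

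The promoters of the CD3 chains and of Jchain are shown because these genes changed most among the members. The windows run from 250 bases before to 50 bases after the gene start and come from RefSeq on the rat assembly GRCr8, which was not the source of the array. A match was found for 33 of the 47 member symbols. Capitals mark the ETS core AGGAAG or its reverse complement CTTCCT, the site letters of the ETS family of transcription factors.
Cd3d (chr8:54185269-54185568, plus strand): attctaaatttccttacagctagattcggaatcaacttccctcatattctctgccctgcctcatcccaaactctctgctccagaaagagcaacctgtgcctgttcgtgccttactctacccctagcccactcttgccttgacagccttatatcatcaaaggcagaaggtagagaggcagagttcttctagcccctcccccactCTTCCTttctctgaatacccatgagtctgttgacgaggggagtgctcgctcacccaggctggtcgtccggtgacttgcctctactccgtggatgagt
Cd3e (chr8:54211721-54212020, minus strand): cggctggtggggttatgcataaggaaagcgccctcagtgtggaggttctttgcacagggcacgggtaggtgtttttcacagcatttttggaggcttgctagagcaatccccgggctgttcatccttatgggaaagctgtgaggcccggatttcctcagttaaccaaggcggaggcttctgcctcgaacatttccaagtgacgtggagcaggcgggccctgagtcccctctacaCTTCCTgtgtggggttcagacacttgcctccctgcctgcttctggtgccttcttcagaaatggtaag
Cd3g (chr8:54183869-54184168, minus strand): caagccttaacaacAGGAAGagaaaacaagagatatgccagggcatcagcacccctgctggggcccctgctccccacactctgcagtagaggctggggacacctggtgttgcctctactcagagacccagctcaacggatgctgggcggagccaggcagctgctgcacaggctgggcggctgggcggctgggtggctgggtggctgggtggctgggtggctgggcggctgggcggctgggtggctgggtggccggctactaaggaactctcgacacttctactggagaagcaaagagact
Cd247 (chr13:80576019-80576318, plus strand): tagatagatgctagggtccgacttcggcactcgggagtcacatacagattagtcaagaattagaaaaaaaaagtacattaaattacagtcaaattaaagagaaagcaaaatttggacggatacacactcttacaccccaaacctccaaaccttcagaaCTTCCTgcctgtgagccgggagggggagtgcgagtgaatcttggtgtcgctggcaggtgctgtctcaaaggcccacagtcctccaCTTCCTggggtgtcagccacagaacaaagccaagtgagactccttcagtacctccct
Jchain (chr14:19822726-19823025, plus strand): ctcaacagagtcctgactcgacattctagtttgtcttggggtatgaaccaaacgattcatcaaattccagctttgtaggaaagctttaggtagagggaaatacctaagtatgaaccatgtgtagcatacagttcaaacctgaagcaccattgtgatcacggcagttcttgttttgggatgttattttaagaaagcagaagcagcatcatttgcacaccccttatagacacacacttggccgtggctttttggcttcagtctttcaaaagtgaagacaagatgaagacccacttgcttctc

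Each CD3 chain window held these letters, with 2 matches in Cd247 and 1 in each of the other three, and the Jchain window held none. The starts of Cd3d and Cd3g lie 1601 bases apart on opposite strands. The ETS core was present in 19 of the 33 member windows, in 7 of the 10 windows of members that were higher, and in 34.5% of 33469 windows of all genes. Of the other motifs searched on both strands, the RUNX letters TGTGGT were in 11 of 33 member windows and 17.3% of all, with no CD3 chain among them. The TCF and LEF letters CTTTGA were in 8 of 33, Cd3d and Cd247 included, and 16.1% of all. The GATA letters AGATAA were in 5 of 33 and 11.6% of all, and the octamer ATTTGCAT was in 0 of 33 and 1.78% of all. No motif searched contains another, and a match describes the sequence only.

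Of the kinases and adaptors downstream of the receptor, Lck, Lat and Lcp2 were higher, Zap70 did not pass by its brightest probe set and Trat1 was too dim to be tested. Lck, the kinase that phosphorylates the CD3 chains, had signals of 521.1, 615.7 and 380.3 in Cy/+ kidneys, against 138.9, 164.8 and 161.6 in +/+ kidneys. It was 3.21-fold higher (log2 fold change 1.68, standard error 0.18, adjusted p = 0.000212 from limma), with both genotypes above the threshold for testing. Lat, the membrane adaptor, had 200.4, 251.1 and 181.7 in Cy/+ kidneys, against 82.34, 84.14 and 77.94 in +/+ kidneys (2.57-fold, adjusted p = 0.000148). The arrays of the genotypes lay well apart for both genes. Lcp2 encodes SLP-76 and is also made by myeloid cells. It had 244.6, 219.6 and 164.7 in Cy/+ kidneys, against 75.46, 82.22 and 105.1 in +/+ kidneys (2.39-fold, adjusted p = 0.000875), and its second probe set was 2.03-fold higher (adjusted p = 0.00103).

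Zap70, the kinase that binds the phosphorylated CD3 chains, gave different answers by probe set. Its brightest probe set had 119.4, 118.8 and 110.1 in Cy/+ kidneys, against 116.7, 96.79 and 120.8 in +/+ kidneys, a log2 fold change of 0.065 (95% confidence interval -0.20 to 0.33, adjusted p = 0.63 from limma). The arrays of the genotypes overlapped. The other probe set had 130.7, 224.0 and 134.8 in Cy/+ kidneys, against 75.76, 65.81 and 80.25 in +/+ kidneys, and was 2.14-fold higher (adjusted p = 0.00324), or at least 2.03-fold. With the mean of both the log2 fold change was 0.58 (adjusted p = 0.0101). Trat1, another adaptor of the receptor, had a signal of 12.95 to 16.22 on all 6 arrays and was not tested.

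Of the surface molecules, Cd2, Cd7 and Icos were higher by 1.79-fold to 2.14-fold. Cd2, an adhesion receptor, had 169.0, 211.9 and 118.3 in Cy/+ kidneys, against 91.27, 88.67 and 91.63 in +/+ kidneys (1.79-fold, log2 standard error 0.20, adjusted p = 0.00817 from limma). Cd7, a surface protein of T and NK cells, had 211.0, 239.2 and 148.8 in Cy/+ kidneys, against 93.42, 89.09 and 92.16 in +/+ kidneys (2.14-fold, 0.17, adjusted p = 0.00122). Icos, a costimulatory receptor of activated T cells, had 232.0, 201.0 and 162.0 in Cy/+ kidneys, against 109.9, 76.9 and 103.5 in +/+ kidneys (2.05-fold, 0.18, adjusted p = 0.00201). The dimmest Cy/+ array was brighter than the brightest +/+ array for these 3 genes. A second probe set of Icos was 2.24-fold higher (adjusted p = 0.00225), or at least 1.84-fold, while another, below the threshold for testing, had a log2 fold change of -0.14.

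Cd6, a receptor that tunes T cell activation, had 219.3, 204.1 and 204.9 in Cy/+ kidneys, against 174.6, 182.4 and 177.0 in +/+ kidneys. Its arrays lay apart but the change was 1.18-fold, with an adjusted p of 0.0427 from limma. With quantile normalization the adjusted p was 0.232, with centring on the median it was 0.126, and leaving out any single array gave 0.0575 to 0.133. Cd5, a related receptor, had 150.7, 175.1 and 71.69 in Cy/+ kidneys, against 33.24, 38.76 and 38.92 in +/+ kidneys. Its mean over the 6 arrays was below the threshold and it was not tested, and its Cy/+ mean was at least 1.59-fold higher. The dimmest Cy/+ array, replicate 3, was again below the other two.

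Of the coreceptors that divide T cells into helper and cytotoxic cells, Cd4 did not pass the test and the CD8 chains were too dim to be tested. Cd4, which in the rat is also made by macrophages, had 171.9, 109.6 and 89.7 in Cy/+ kidneys, against 132.7, 120.8 and 119.0 in +/+ kidneys. The log2 fold change was -0.058 (95% confidence interval -0.59 to 0.48, adjusted p = 0.831 from limma), and the Cy/+ arrays spread on both sides of the +/+ arrays. Without the Cy/+ array of replicate 1 it was -0.32 (adjusted p = 0.0493), and without that of replicate 3 it was 0.15 (adjusted p = 0.545). Cd8a, the alpha chain of CD8, had 75.73, 110.7 and 57.43 in Cy/+ kidneys, against 38.74, 27.65 and 40.03 in +/+ kidneys. The arrays of Cd8a lay apart, and its mean over 6 arrays was below the threshold for testing. Its other probe sets, also under the threshold, had log2 fold changes of 0.09 and -0.22.

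Cd8b, the beta chain of CD8, lay near background with 38.48, 37.18 and 36.09 in Cy/+ kidneys, against 43.56, 39.55 and 49.62 in +/+ kidneys. The costimulatory receptor Cd28 and the inhibitory receptor Ctla4 were equally dim, with signals of 24.02 to 31.0 over the Cy/+ arrays and of 31.74 to 44.04 over the +/+ arrays. For these 3 genes the brightest Cy/+ array was dimmer than the dimmest +/+ array. Their log2 fold changes were -0.24 for Cd8b, -0.43 for Cd28 and -0.39 for Ctla4. Of the 12417 probe sets under the threshold, 33.0% lay lower on all Cy/+ arrays and 13.5% lay higher, with a median log2 fold change of -0.10. Among all probe sets 34.4% lay lower in this way. The part of low signal in this order was not tested.

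Gata3, a transcription factor of T helper cells and also of the collecting duct, varied widely among the Cy/+ samples. It had 679.8, 2209 and 1195 in Cy/+ kidneys, against 517.6, 481.4 and 553.1 in +/+ kidneys (2.35-fold, log2 standard error 0.38, adjusted p = 0.0226 from limma). Its brightest Cy/+ signal was 3.25 times its dimmest, and its second probe set did not pass (1.77-fold, adjusted p = 0.0789, arrays overlapping). With the methods' t-test in place of limma the adjusted p was 0.0955, and it was 0.0543 to 0.0657 when the Cy/+ array of replicate 3 or any single +/+ array was left out.

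The 11 collecting duct markers were all dimmest on the Cy/+ array of replicate 1 and brightest on that of replicate 2, the order that Gata3 shows. Jchain, Cd79b and Cd28 show this order too, as do 30.7% of the 6661 probe sets that were higher. The summed signal of the 11 collecting duct markers was 8953 to 24510 over the Cy/+ arrays and 11330 to 12870 over the +/+ arrays. Of the 10 tested, Aqp4, a water channel, was higher (4.85-fold, adjusted p = 0.00684 from limma) and 9 did not pass, such as Aqp2, the vasopressin-regulated water channel (1.9-fold, adjusted p = 0.0757). The part of these cells in the signal of Gata3 was not tested.

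**Figure D3:**
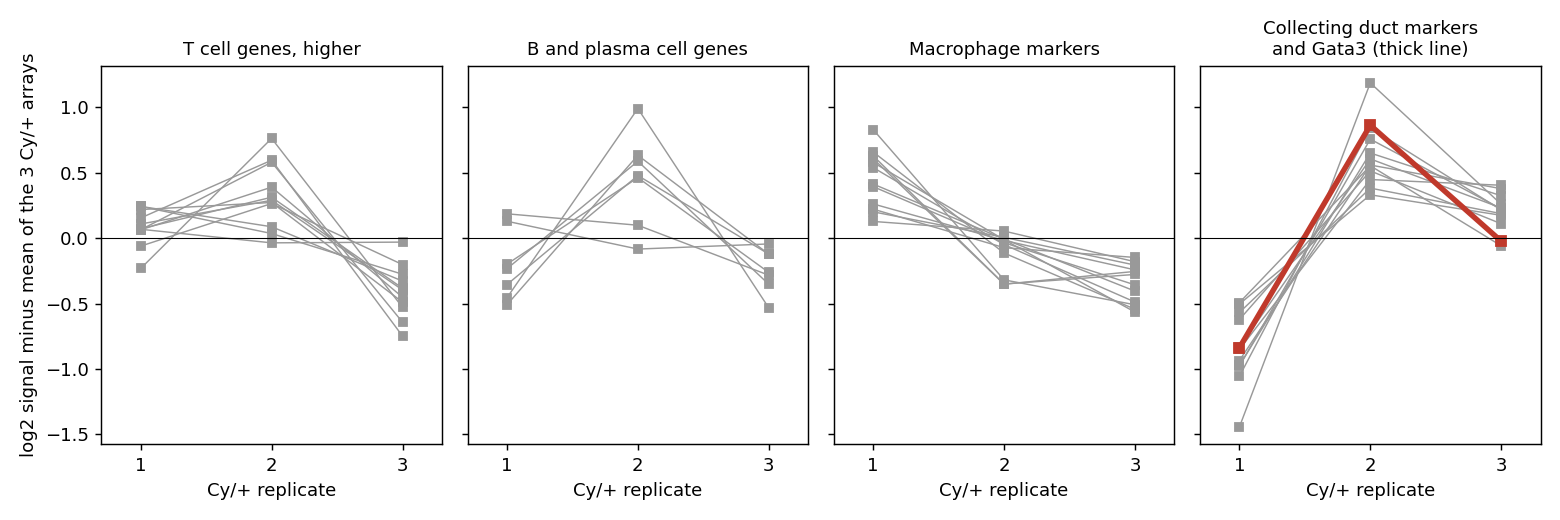
Log2 signal of each gene on the 3 Cy/+ arrays minus its mean over them, for the T cell genes that were higher other than Gata3, the B and plasma cell genes, macrophage markers and collecting duct markers with Gata3 as the thick line. Thin lines join the points of a gene and imply no order of the replicates. T and B cell genes are mostly brightest in replicate 2, all 12 macrophage markers are brightest in replicate 1, and Gata3 is dimmest in replicate 1 and brightest in replicate 2, as the collecting duct markers are.

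The Cy/+ samples differed among themselves in the 13 members that were higher. The brightest Cy/+ array was a median of 1.70 times the dimmest for these 13 and 1.25 times for all 6661 probe sets that were higher, while the +/+ arrays gave 1.19 and 1.13 times. Of the 13, 10 were brightest on the array of replicate 2 and 10 were dimmest on that of replicate 3, beside 45.9% and 37.7% of the 6661 probe sets. The 13 leukocyte genes with a probe set gave 9 brightest in replicate 2 and 13 dimmest in replicate 3. All 12 macrophage markers were instead brightest in replicate 1, with 10 dimmest in replicate 3. These points share libraries, and their order was not tested.

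No NK or cytotoxic gene was past the threshold. Of the 7, Klrk1 alone was bright enough to test and did not pass, while 5 of the others had both genotype means below 77.8. Prf1, which encodes perforin, had 116.7, 107.0 and 59.76 in Cy/+ kidneys, against 53.44, 69.8 and 68.96 in +/+ kidneys. Its arrays overlapped because of the Cy/+ sample of replicate 3, and it lay just under the threshold for testing. Klrk1, which encodes the activating receptor NKG2D, had 137.2, 136.4 and 126.2 in Cy/+ kidneys, against 150.4, 144.6 and 167.8 in +/+ kidneys (log2 fold change -0.21, 95% confidence interval -0.44 to 0.023, adjusted p = 0.0967 from limma). It was lower with quantile normalization (-0.29, adjusted p = 0.0303) and with centring on the median (-0.28, adjusted p = 0.0376).

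Of the granzymes, serine proteases of cytotoxic granules, Gzma and Gzmb were at background in both genotypes. Gzmm, a granzyme outside the members, was above the threshold for testing and did not pass (log2 fold change 0.12, adjusted p = 0.639 from limma). Of the further T and NK cell genes described below, Ctsw, Il2rb, Hcst and Tyrobp were higher and Klrb1c was lower. Gzma had 22.61, 20.68 and 22.34 in Cy/+ kidneys, against 24.71, 23.62 and 25.77 in +/+ kidneys. Gzmb had 25.6, 21.92 and 22.96 in Cy/+ kidneys, against 26.38, 28.36 and 29.58 in +/+ kidneys. Both were slightly lower on every Cy/+ array, an order that 33.0% of probe sets under the threshold share. Nkg7, a granule membrane protein, had 68.04, 59.81 and 56.87 in Cy/+ kidneys, against 73.85, 65.35 and 78.17 in +/+ kidneys, with overlapping arrays. Gzmk lay at 42.28 to 56.05 in Cy/+ and 50.36 to 55.2 in +/+ kidneys, and Klrd1, which encodes the receptor subunit CD94, at 34.55 to 60.52 in Cy/+ and 30.19 to 37.63 in +/+ kidneys. The summed signal of the 7 genes was 365.0 to 486.7 over the Cy/+ arrays, a range that holds that of the +/+ arrays, 411.2 to 462.7.

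**Figure D4:**
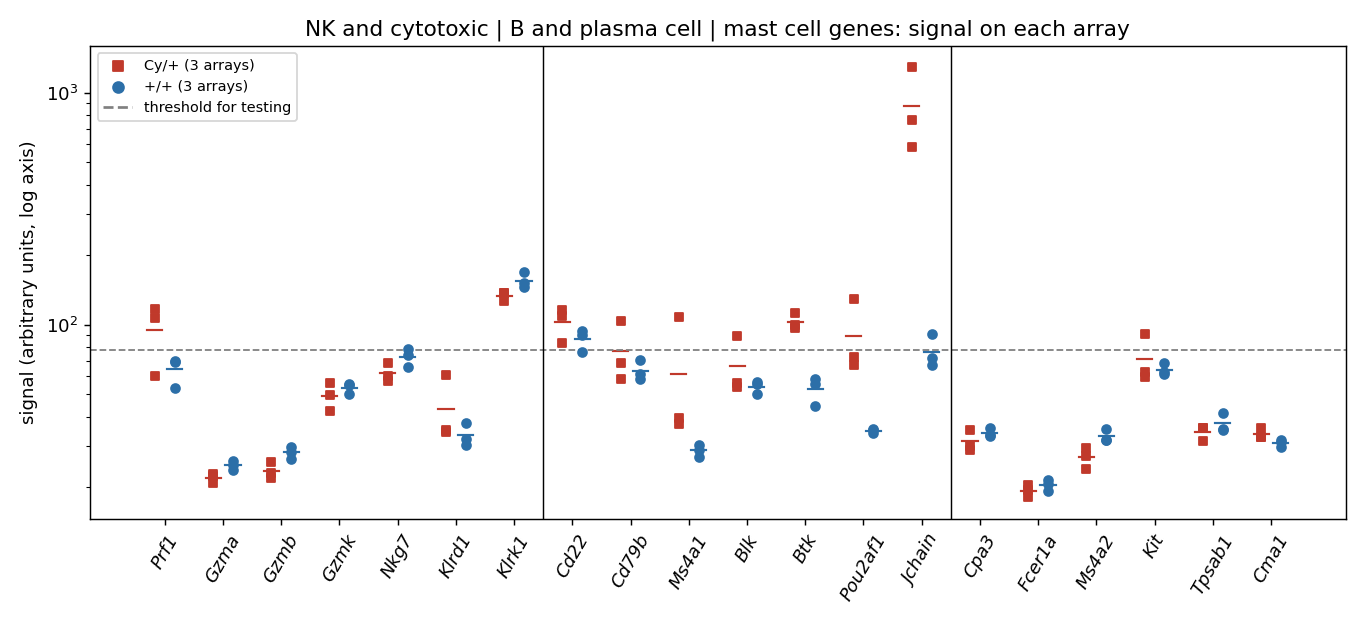
Signal of the NK and cytotoxic genes (left), B and plasma cell genes (middle) and mast cell genes (right) on each array, in arbitrary units on a log axis, with red squares for Cy/+ and blue circles for +/+ samples, short lines for the means of 3 arrays and a dashed line at the threshold for testing of 77.8. Jchain lies from 582 to 1284 in Cy/+ and from 66.68 to 90.65 in +/+ kidneys, while most other genes lie near or below the dashed line.

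Among B and plasma cell genes, Jchain was 11.0-fold higher and most other genes of the list were dim. Jchain had signals of 582, 1284 and 760.7 in Cy/+ kidneys, against 71.46, 66.68 and 90.65 in +/+ kidneys. The means were 876 ± 365 in Cy/+ and 76.3 ± 12.7 in +/+ kidneys (SD, n = 3 each), and the genotypes lay far apart. The log2 fold change was 3.45 (standard error 0.28, adjusted p = 7.38e-05 from limma), or at least 10.6-fold. A dimmer second probe set of Jchain, under the threshold for testing, had 65.7, 72.76 and 53.1 in Cy/+ kidneys, against 33.2, 37.37 and 39.96 in +/+ kidneys. With the mean of both the log2 fold change was 2.12 (adjusted p = 0.000147).

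Pou2af1 encodes a coactivator that B cells need to form germinal centres. It had 72.62, 128.3 and 66.88 in Cy/+ kidneys, against 35.64, 34.12 and 35.07 in +/+ kidneys. Btk, a kinase of the B cell receptor that myeloid cells also make, had 112.3, 96.92 and 99.58 in Cy/+ kidneys, against 58.14, 44.77 and 55.61 in +/+ kidneys. Both genes lay apart on the arrays but had a mean under the threshold. Their Cy/+ means were at least 1.1-fold higher for Pou2af1 and at least 1.32-fold for Btk.

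Ms4a1, which encodes the B cell marker CD20, had 39.51, 107.6 and 37.46 in Cy/+ kidneys, against 26.98, 28.7 and 30.37 in +/+ kidneys. The Cy/+ array of replicate 2 alone was above 77.8. Cd79b, a signalling chain of the B cell receptor, had 58.33, 103.9 and 68.56 in Cy/+ kidneys, against 61.31, 70.61 and 58.22 in +/+ kidneys, with overlapping arrays. The kinase Blk likewise overlapped, at 53.86 to 88.94 in Cy/+ and 50.05 to 56.49 in +/+ kidneys, and it too was brightest in replicate 2. Cd22, an inhibitory receptor of B cells, was tested and had 115.7, 108.9 and 83.59 in Cy/+ kidneys, against 90.21, 93.53 and 76.03 in +/+ kidneys (log2 fold change 0.24, 95% confidence interval -0.12 to 0.60, adjusted p = 0.198 from limma). Without the Cy/+ array of replicate 3 it was 0.38 (adjusted p = 0.0425).

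No mast cell gene was bright enough to test, since all 6 with a probe set had both genotype means below 77.8. Cpa3, which encodes mast cell carboxypeptidase, had 35.29, 29.83 and 28.94 in Cy/+ kidneys, against 33.55, 35.84 and 33.06 in +/+ kidneys. Tpsab1, a tryptase, had 31.5, 35.85 and 36.01 in Cy/+ kidneys, against 35.5, 35.3 and 41.65 in +/+ kidneys. The arrays of both overlapped. Cma1, the chymase, had 32.92, 35.91 and 32.72 in Cy/+ kidneys, against 29.58, 31.66 and 31.19 in +/+ kidneys, and was the single mast cell gene whose Cy/+ arrays all lay higher. With a log2 fold change of 0.14 this is a small difference at low signal.

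The chains of the IgE receptor were dim as well. Fcer1a, the alpha chain, had 20.28, 19.4 and 18.0 in Cy/+ kidneys, against 19.21, 21.37 and 20.49 in +/+ kidneys. Ms4a2, the beta chain, had 29.47, 23.97 and 27.09 in Cy/+ kidneys, against 31.8, 31.73 and 35.39 in +/+ kidneys, and lay lower on every Cy/+ array. Kit, the receptor for stem cell factor, had 91.13, 62.31 and 59.71 in Cy/+ kidneys, against 68.42, 61.08 and 62.56 in +/+ kidneys, with overlapping arrays. The summed signal of the 6 genes was 202.5 to 240.6 over the Cy/+ arrays and 217.0 to 224.3 over the +/+ arrays. Without the filter Ms4a2 was lower (log2 fold change -0.30, adjusted p = 0.0326 from limma) and the other 5 did not pass.

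Altogether 23 of the 40 members lay under the threshold for testing, with signals of 12.95 to 175.1. Of these, 6 lay higher on every Cy/+ array (26.1%) and 6 lay lower (26.1%), against 13.5% and 33.0% of all probe sets under the threshold. The 6 higher were Cd5, Cd8a, Ms4a1, Btk, Pou2af1 and Cma1, and the 6 lower were Cd8b, Cd28, Ctla4, Gzma, Gzmb and Ms4a2. In the limma fit without the filter, Cd5 (adjusted p = 0.00191), Cd8a (0.00502), Btk (0.000496) and Pou2af1 (0.00207) were higher. Cd28 (adjusted p = 0.00446), Ctla4 (0.014), Gzmb (0.0329) and Ms4a2 (0.0326) were lower, and the other 15 of the 23 did not pass.

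Further genes of the same cells were examined as lists. Of 18 tested genes of antigen receptor signalling, 13 were higher, none was lower and 5 did not pass, beside 35.8% of all tested probe sets higher. The median log2 fold change was 0.92, against 0.048 over all tested probe sets, and it was 0.74 over all 21 genes of the list with a probe set. Nfatc2, a transcription factor that calcium signals activate, was 3.1-fold higher (adjusted p = 6.52e-05 from limma), and Prkcb, a protein kinase C of B cells and myeloid cells, was 4.47-fold higher (adjusted p = 6.6e-05). Many of these genes are also made by myeloid cells.

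Of 13 tested genes among other T and NK cell markers, 9 were higher, 1 was lower and 3 did not pass, beside 35.8% of all tested probe sets higher and 31.3% lower. Their median log2 fold change was 1.13, but it was 0.12 over all 27 genes of the list with a probe set, of which 12 lay higher on every Cy/+ array, 2 lower and 13 overlapped. For 5 of the 27 the +/+ mean alone was below 77.8, Tcf7 among them. Tcf7, a transcription factor of naive and memory T cells, had 298.8, 478.6 and 303.8 in Cy/+ kidneys, against 37.07, 53.7 and 43.56 in +/+ kidneys (7.94-fold, adjusted p = 5.18e-05 from limma, at least 4.52-fold). Bcl11b, which sets T cell identity, had 485.1, 646.0 and 454.6 in Cy/+ kidneys, against 92.63, 118.3 and 99.98 in +/+ kidneys (5.07-fold, adjusted p = 4.39e-05). Both kept a wide gap between the genotypes. Klrb1c, an NK cell receptor, was the gene that was lower (0.658-fold, adjusted p = 0.00545). The higher genes also included Ctsw (1.87-fold, adjusted p = 0.00055 from limma) and Il2rb (1.95-fold, adjusted p = 0.00192, at least 1.64-fold). Hcst (2.52-fold, adjusted p = 0.00245) and Tyrobp (2.19-fold, adjusted p = 0.000388) were higher too, while Gzmm, Xcl1 and Ccl5 did not pass.

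The other B and plasma cell list had 6 tested genes, of which 2 were higher, 1 was lower and 3 did not pass, beside 35.8% of all tested probe sets higher and 31.3% lower, and 10 of its 20 genes had no probe set. The median was 0.27 over the tested genes and 0.19 over the 10 with a probe set. Cd40, a costimulatory receptor of B cells and other antigen-presenting cells, was 2.25-fold higher (adjusted p = 0.00139 from limma), and Ebf1, a B lineage transcription factor, was 1.46-fold higher (adjusted p = 0.0085). Ebf1 already had 142.5 to 176.5 in +/+ kidneys, where the B cell marker Ms4a1 had 26.98 to 30.37. Which cells gave the Ebf1 signal was not tested. Cxcr5, the receptor that leads B cells into follicles, was lower (0.827-fold, adjusted p = 0.0299). Among the plasma cell genes of this list, Xbp1 (log2 fold change 0.19, adjusted p = 0.165 from limma) and Prdm1 (-0.076, adjusted p = 0.742) did not pass. Xbp1 was already bright in +/+ kidneys, with 2652 to 3267, where Jchain had 66.68 to 90.65. With quantile normalization Xbp1 was higher (0.39, adjusted p = 0.0227 from limma) and Prdm1 did not pass (-0.13, adjusted p = 0.549). Mzb1 (0.10) and Tnfrsf17 (-0.06) were under the threshold for testing, with overlapping arrays. The other mast cell list had 8 tested genes with a median of -0.018. Of these, Fcer1g, a receptor chain shared with macrophages, was higher (1.65-fold, adjusted p = 0.00972), Tpsb2, a tryptase, was lower (0.774-fold, adjusted p = 0.0167, at least 1.15-fold lower), and 6 did not pass.

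Most tested leukocyte genes and macrophage markers were also higher, beside 35.8% of all tested probe sets. Of 12 tested leukocyte genes 11 were higher and 1 did not pass, with a median of 1.42. Their summed signal over the 13 genes with a probe set was 12430 to 18000 in Cy/+ and 5919 to 6497 in +/+ kidneys. Laptm5, a lysosomal protein of blood cells, was 4.47-fold higher (adjusted p = 2.54e-05 from limma), and Coro1a, an actin-binding protein, was 4.18-fold higher (adjusted p = 9.61e-05). Of 11 tested macrophage markers 10 were higher and 1 did not pass, with a median of 1.19 and a summed signal over 12 genes of 14390 to 21880 in Cy/+ and 7554 to 8632 in +/+ kidneys. Cd14, a receptor for bacterial lipopolysaccharide, was 4.44-fold higher (adjusted p = 4.36e-05) and Lyz2, lysozyme, was 2.06-fold higher (adjusted p = 0.000276). Of the 4 neutrophil markers with a probe set S100a9 alone was tested, and it was 2.01-fold higher (adjusted p = 0.0355), or at least 1.46-fold. The summed signal of the 20 T cell genes was 3597 to 6113 in Cy/+ and 1886 to 2064 in +/+ kidneys. This sum includes Gata3, which the collecting duct also makes, with 679.8 to 2209 in Cy/+ and 481.4 to 553.1 in +/+ kidneys. Of the 13 members that were higher, 11 changed by more than the median of 1.83-fold of the hybridization controls. Of these, 3, Cd3g, Cd247 and Jchain, changed by more than the median of 3.82-fold of the poly-A controls. Members called higher are a selected set, and the share of all probe sets beyond these folds was not counted. The part of the control differences in these changes was not tested.

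**Figure D5:**
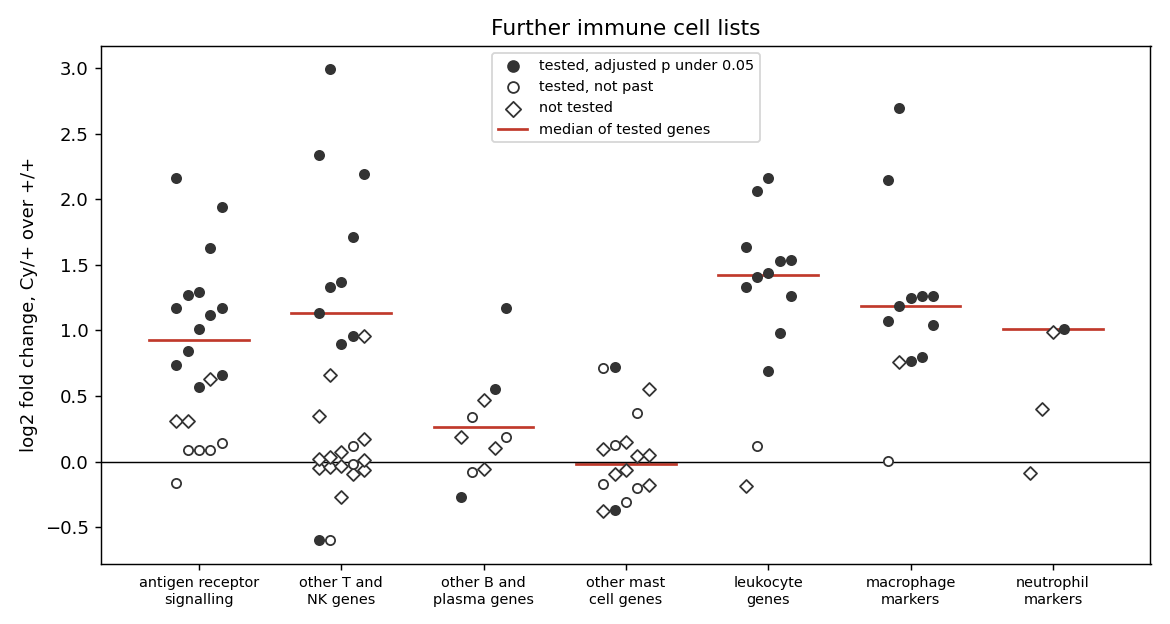
Log2 fold change, Cy/+ over +/+, of the genes of 7 further lists, with filled circles for genes past the adjusted p of 0.05, open circles for tested genes that did not pass, diamonds for genes under the threshold for testing and a line for the median of the tested genes. The medians of tested genes lie at 1.42 for leukocyte genes, 1.19 for macrophage markers, 1.13 for other T and NK genes and -0.018 for other mast cell genes, and over all genes with a probe set they are 1.41, 1.13, 0.12 and 0.044.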

How the data were processed

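RNA of 3 Cy/+ and 3 +/+ kidney samples was hybridized to Affymetrix Rat Genome 230 2.0 arrays, 1 per sample. The authors made biotinylated cRNA from total RNA and read the arrays with GCOS, and the submitters' processing notes name MAS5. What was deposited is 1 linear signal intensity per probe set and array, between 10.65 and 32240, with no detection calls, and precision is limited by the number of arrays. They were taken to log2 with no pseudocount. Of 31099 probe sets, 57 controls were left out. Symbols come from the platform annotation, updated by Entrez ID for 20764 probe sets; 20832 probe sets have 1 symbol, 436 several and 9831 none.

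The fit used limma 3.58.1 (R 4.3.3), with lmFit, eBayes with an intensity trend and no covariate. The 47 members and the lists were chosen with earlier results of these data known. Values on every array are given for members past the threshold and for defining markers of each class, the rest by range or count, and 2 genes of smallest adjusted p per direction are named from further lists. Per-array values of Cd5, Zap70, Pou2af1, Btk, Cd22 and Klrk1 were added after they were seen. So were the values of Xbp1, Prdm1, Mzb1, Tnfrsf17, Gzmm, Ctsw, Il2rb, Hcst and Tyrobp. On 18625 simulated probe sets the fit recovered 42% of 1.5-fold, 84% of 2-fold, 94% of 4-fold and 98% of 8-fold changes, with 8 false calls; far fewer probe sets were changed there than in the data. Alternatives were quantile normalization, centring on the median, no filter or one at the 60th percentile, a pseudocount of 16, no trend, the methods' t-test, a replicate block, other choices of probe set, and leaving out each array.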

Additional observations from a re-analysis of the deposited data

How the results depend on the processing

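The 12 T cell genes higher in Cy/+ kidneys numbered 10 to 13 under the alternatives, apart from 2 with the filter at the 60th percentile (a signal of 209), where few of them are tested. T cell genes lower numbered 2 with no filter and 0 to 1 when single arrays were left out, the 1 being Cd4 without the Cy/+ array of replicate 1. NK and cytotoxic genes lower numbered 1 with quantile normalization, 1 with centring on the median and 1 with no filter. B and plasma cell genes higher numbered 3 with no filter and 1 to 2 when single arrays were left out, Cd22 being added without the Cy/+ array of replicate 3. Mast cell genes lower numbered 1 with no filter. Of the log2 fold changes that did not pass, Cd4 changed sign to 0.0018 and 0.15 without the Cy/+ arrays of replicates 2 and 3, and Zap70 to -0.004 with centring on the median and -0.033 without the +/+ array of replicate 2. With single arrays left out Cd4 ranged from -0.32 to 0.15 and Zap70 from -0.033 to 0.13. Of the 13 members higher, Cd6 lost its call under quantile normalization, centring, no filter, the block and each array left out, and Gata3 with the methods' t-test and when the Cy/+ array of replicate 3 or any +/+ array was left out. Genes that an alternative left under its filter are not counted as lost. Jchain kept its call under every alternative run, with log2 fold changes of 2.12 to 3.71. Over all tested probe sets, 53.3% of calls were higher in Cy/+, against 49.3% with quantile normalization, 47.8% with centring and 48.5% with no filter.

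The main fit did not pair the samples by replicate number. Deviations of same-numbered arrays from their genotype means correlated at 0.147, -0.11 and -0.151, and those of differently numbered arrays at -0.116 to 0.235. With 3 arrays per genotype these values cannot show whether same-numbered samples share a batch. With the replicate number as a block 6293 probe sets were higher and 5340 lower, against 6661 and 5830 without it, and 11 T cell genes were higher, Cd6 being lost (adjusted p = 0.108 from limma).

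Signals near background limit 23 of the 40 members, whose values are descriptions without a test, and 7 members have no probe set of their own.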

Other observations

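The values of 3 antibody genes outside the list are given here, chosen after they were seen. The probe set named Ighvl1, an immunoglobulin heavy chain variable gene in the annotation, had 376.8, 849.1 and 437.6 in Cy/+ kidneys, against 100.8, 108.8 and 89.06 in +/+ kidneys (5.23-fold, adjusted p = 0.000344 from limma). Ighl2 had 182.9, 349.7 and 185.8 in Cy/+ kidneys, against 138.7, 135.7 and 107.6 in +/+ kidneys (1.8-fold, adjusted p = 0.0225). Iglc1, a light chain constant gene, was under the threshold for testing, with 57.55, 150.2 and 66.79 in Cy/+ kidneys, against 31.43, 38.86 and 39.53 in +/+ kidneys. All 3 were brightest on the Cy/+ array of replicate 2, as Jchain was.

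Kitlg, which encodes stem cell factor, the ligand of Kit, gave unlike values by probe set and was also chosen after its values were seen. Its brightest probe set did not pass (log2 fold change -0.17, adjusted p = 0.294 from limma). A second one had 54.98, 73.44 and 76.93 in Cy/+ kidneys, against 278.1, 229.3 and 247.4 in +/+ kidneys (log2 fold change -1.89, adjusted p = 6.97e-05), at least 3.22-fold lower in Cy/+ kidneys. The other 2, under the threshold for testing, had log2 fold changes of -1.21 and -0.13.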
